A study of Mus musculus with 8 samples.

Results

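Dopamine given together with IL-33 was compared with IL-33 in single lung group 2 innate lymphoid cells (ILC2s). The comparison covered 8017 of the 9076 cells that the authors kept from a hashtag-labelled droplet (10x) pool. Of these, 3924 carried hashtags 6, 7 and 8, assigned to IL-33 plus dopamine (1252, 1197 and 1475 cells), and 4093 carried hashtags 3, 4 and 5, assigned to IL-33 (1485, 1092 and 1516 cells). The cells were chosen by the treatment written in the authors' cell table, and no measured value entered the choice. The other 1059 cells, hashtags 1 and 2, are assigned to PBS in that table; they serve as a reference level and entered no test. All mice were male, wild type and C57BL/6, and treatments went through the nose on 3 consecutive days, so both groups compared had IL-33 and differed in dopamine, although the cell table does not say whether its IL-33 group also had the PBS vehicle. The labels give neither the age of the mice nor the number of mice behind a hashtag, so the p-values measure the spread between hashtags, which may be technical. A separate bulk experiment in female mice, 3 libraries of 2000 sorted ILC2s with IL-33 plus dopamine and 3 with IL-33 plus PBS, was used to look up the genes found here.

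ILC2s are tissue lymphocytes without antigen receptors that release IL-5, IL-13 and amphiregulin when the epithelial alarmin IL-33 binds its receptor ST2. In the lung they drive eosinophilic inflammation and also repair. Dopamine is a catecholamine neurotransmitter that signals through G protein-coupled receptors which raise or lower cyclic AMP. The title of the series places mitochondrial activity between dopamine and the response of these cells, so the genes of the respiratory chain were read beside those of cytokines, surface receptors and cyclic AMP signalling.

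The 6 hashtags held between 5828078 and 9268932 unique molecular identifiers (UMIs, counted RNA molecules), with medians of 4201 to 5692 UMIs and 1466 to 1840 genes per cell. Cells, UMIs, genes and the mitochondrial share per cell all overlapped between the groups. Hashtag 8 stood apart, with the lowest median of UMIs per cell, and it scored 27.6 on principal component 1 while the other 5 hashtags lay from -15.8 to -0.6. All cells come from a single pooled library, each kept cell had 1 hashtag, and 0 barcodes were repeated. The labelled cell type held up against its markers: 89.9% of cells without and 90% of cells with dopamine had a UMI of Gata3, the master regulator of ILC2s, and for Il1rl1, the gene of ST2, the shares were 92.1% and 92.6%. For Lyz2, a myeloid transcript that ILC2s should lack, they were 0.269% and 0.255%.

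Dopamine lowered 3 genes in the summed cells: Cd3g, Actn2 and Ltb4r1. No gene passed in the other direction. Among 10559 genes tested with edgeR's quasi-likelihood test, these 3 (0.0284%) had a Benjamini-Hochberg adjusted p under 0.05 and 0 were called higher. At an unadjusted p under 0.05, 508 genes (4.81%) were higher and 492 (4.66%) lower, 9.47% in all. DESeq2 called 11 genes higher and 15 lower, among them the same 3. Without overlap between the 3 hashtags of each group, 825 genes (7.81%) were higher with dopamine and 732 (6.93%) lower.

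Cd3g (chr9:44969572-44980431, minus strand, GRCm38) encodes the gamma chain of CD3, the signalling part of the T cell receptor complex, and some innate lymphoid cells keep its transcript. Its level, in UMIs per 1000000 of a hashtag's UMIs (CPM), was 113, 93.7 and 103 in the IL-33 hashtags 3, 4 and 5. In the dopamine hashtags 6, 7 and 8 it was 49.8, 53 and 44.9. Every dopamine hashtag lay below every IL-33 hashtag, and the group means were 103 ± 9.92 and 49.2 ± 4.06 CPM (SD, n = 3 hashtags each). The fitted log2 difference was -1.07 ± 0.10 (SE), with an adjusted p of 0.0014. In the PBS hashtags 1 and 2 it was 40.1 and 83.7 CPM, a span that holds all 3 dopamine values and no IL-33 value.

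Actn2 (chr13:12269426-12340760, minus strand) encodes alpha-actinin-2, an actin crosslinking protein best known from the muscle Z-disc. It stood at 44.6, 45.1 and 40.0 CPM with IL-33 and at 16.5, 23.7 and 17.6 CPM with dopamine. The log2 difference was -1.16 ± 0.13, with an adjusted p of 0.00895. PBS hashtags had 19.3 and 37.2 CPM.

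Ltb4r1 (chr14:55765962-55768494, plus strand) encodes BLT1, the high-affinity receptor for the chemoattractant lipid leukotriene B4. Its levels were 313, 293 and 325 CPM with IL-33 and 227, 208 and 184 CPM with dopamine, against 208 in both PBS hashtags. The log2 difference was smaller than for the other 2 genes, at -0.59 ± 0.08 with an adjusted p of 0.0293.

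**Figure D1:**
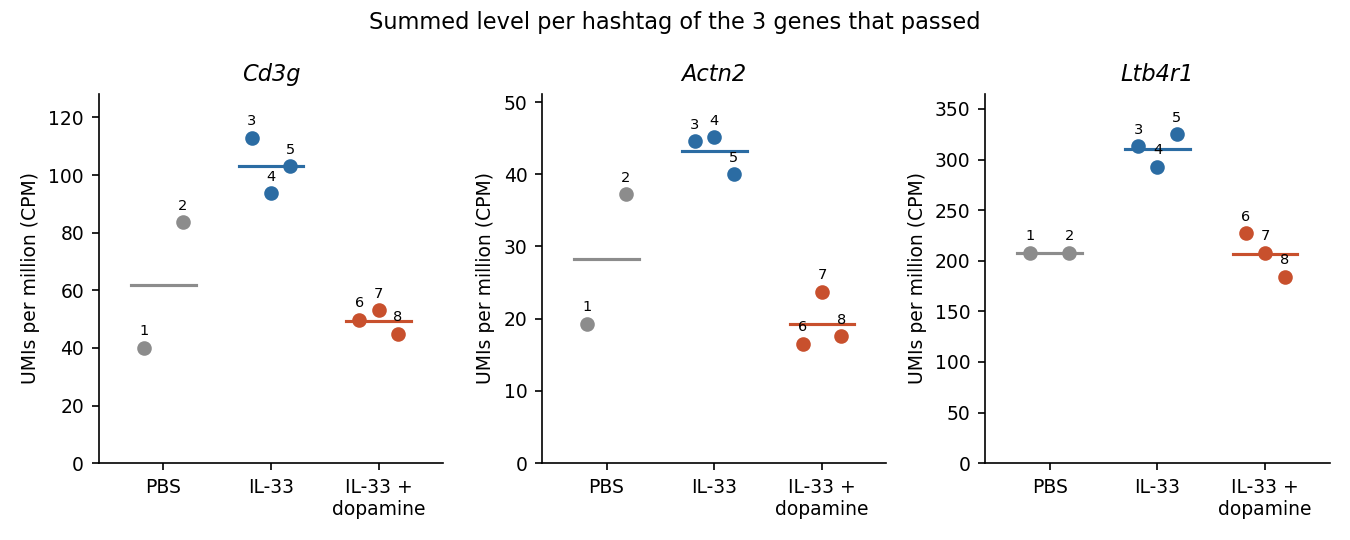
Level of Cd3g, Actn2 and Ltb4r1 in each hashtag, in UMIs per 1000000 (CPM, linear axis from 0), with hashtag numbers beside the points and a line at the group mean (2 PBS, 3 IL-33 and 3 IL-33 plus dopamine hashtags). In each panel the 3 IL-33 plus dopamine points lie below the 3 IL-33 points.

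The same order appeared in the share of cells with at least 1 UMI. After each cell was thinned to 2500 UMIs, so that depth was equal, Cd3g was seen in 16.3, 16.6 and 15.3% of IL-33 cells and in 8.33, 9.48 and 8.88% of dopamine cells. Unthinned, the shares were 26.5, 24.1 and 22.6% against 14.3, 15.2 and 12%. Actn2 was seen in 7.36, 8.74 and 8.07% against 3.15, 4.61 and 3.51% of thinned cells, and unthinned in 14.7, 13.5 and 13.3% against 6.47, 7.77 and 5.76%. Ltb4r1 was seen in 49.1, 47.4 and 49.6% against 39.0, 35.7 and 32.6%, and unthinned in 73.1, 67.9 and 71.1% against 62.1, 57.8 and 49.4%. Thinning left out 5 to 22 shallower cells per hashtag, and the share of thinned cells with Lyz2 was at most 0.267%.

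Leaving out hashtag 3 or hashtag 4 left Cd3g as the sole gene called. Actn2 then had adjusted p-values of 0.0854 and 0.111, and Ltb4r1, also not called without hashtag 5 or 8, reached at most 0.29, while its log2 difference stayed between -0.63 and -0.54. With genes of at least 20 CPM alone, Ltb4r1 also missed the threshold (adjusted p = 0.0768).

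The promoters of these 3 genes are shown because they were lower together. Each line gives the 250 bases before the transcription start in RefSeq (GRCm38.p6), 5′ to 3′ in the direction of the gene, at chr9:44980432-44980681 (minus strand) for Cd3g, chr13:12340733-12340982 (minus strand) for Actn2 and chr14:55765712-55765961 (plus strand) for Ltb4r1. Capitals mark matches to a GATA motif.
Cd3g: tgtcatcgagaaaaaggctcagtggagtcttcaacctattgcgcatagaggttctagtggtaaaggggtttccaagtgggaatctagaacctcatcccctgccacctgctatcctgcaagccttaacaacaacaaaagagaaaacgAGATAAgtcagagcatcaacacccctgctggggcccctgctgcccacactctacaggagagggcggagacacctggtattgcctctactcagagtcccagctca
Actn2: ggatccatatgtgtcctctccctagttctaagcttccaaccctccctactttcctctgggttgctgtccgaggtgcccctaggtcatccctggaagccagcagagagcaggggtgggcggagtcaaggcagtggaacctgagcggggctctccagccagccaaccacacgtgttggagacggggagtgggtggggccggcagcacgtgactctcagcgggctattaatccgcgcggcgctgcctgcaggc
Ltb4r1: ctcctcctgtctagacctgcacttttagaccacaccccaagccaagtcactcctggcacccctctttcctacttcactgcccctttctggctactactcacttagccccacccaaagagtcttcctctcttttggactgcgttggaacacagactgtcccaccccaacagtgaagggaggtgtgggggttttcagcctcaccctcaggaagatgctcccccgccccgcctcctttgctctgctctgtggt
Both strands were searched for the cyclic AMP response element TGACGTCA, for its partial form TGACG, and for GATA motifs in the form AGATAA or the form AGATAG or the form TGATAA or the form TGATAG. The Cd3g window held 1 GATA match, at base 147 counted from its 5′ end, and the other windows held no match. Among 32851 RefSeq windows of the same length, 1.55% held the full element, 17.8% the partial form, which also lies inside the full one, and 26.5% a GATA motif.

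The authors' table divides the cells into 6 numbered clusters, and cluster 1 is where Cd3g and Actn2 were most abundant. Cluster 1 made up 26.2, 27.8 and 27.2% of IL-33 cells and 15.7, 21.6 and 11.7% of dopamine cells. The clusters were built from the same transcripts, so these shares are given without a test. The lower level of Cd3g was also seen inside the cluster: in cluster 1 it was 185, 194 and 196 CPM with IL-33 and 81.4, 94.5 and 105 CPM with dopamine (log2 -1.06 ± 0.12, adjusted p = 7.7e-05). The fitted difference was below 0 in the other 5 clusters too, from -1.08 in cluster 4 to -0.41 in cluster 2, without passing there.

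Ltb4r1 had no overlap between groups in any of the 6 clusters, with log2 differences from -0.58 in cluster 3 to -0.33 in cluster 1, and passed in none of them. Actn2 had no overlap in clusters 0, 2 and 3 (log2 -0.65, -1.28 and -1.33) and overlapped in clusters 1, 4 and 5. When every hashtag contributed equal numbers of cells from each cluster, Cd3g (-0.78, adjusted p = 0.00035) and Ltb4r1 (-0.46, adjusted p = 0.0371) passed and Actn2 (-0.80, adjusted p = 0.0659) did not. With the cells of cluster 1 taken out, none of the 3 passed (0 genes called, 900 at an unadjusted p under 0.05), and the log2 differences were -0.86, -1.16 and -0.62 for Cd3g, Actn2 and Ltb4r1.

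**Figure D2:**
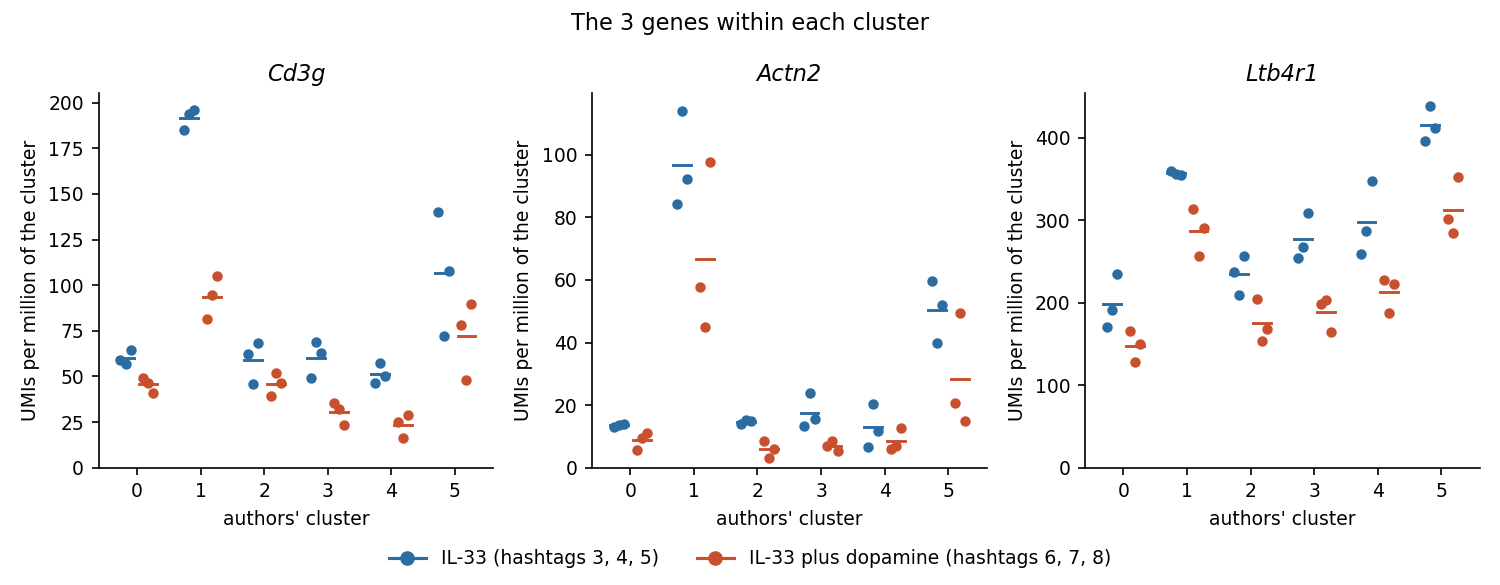
Level of Cd3g, Actn2 and Ltb4r1 within each of the authors' 6 clusters, in UMIs per 1000000 of that cluster (linear axis from 0), with a point per hashtag and a line at the mean of 3. Cd3g in cluster 1 separates most clearly, at 185 to 196 CPM with IL-33 against 81.4 to 105 CPM with dopamine, and for Ltb4r1 the groups are apart in all 6 clusters.

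Since Cd3g is also a T cell gene, a list of 11 T cell markers, Cd3g among them, was read. Their summed level ran from 972 to 1210 CPM with IL-33 and from 1070 to 1110 CPM with dopamine, most of it from the constant-region genes Trbc2 and Trbc1. Of 7 markers tested, 3 were lower without overlap, beside 6.93% of all genes, and all of these encode CD3 chains. Of these, Cd3g was known to be lower before the list was read, so the list adds Cd3e and Cd3d. Cd3e stood at 6.80, 8.06 and 4.53 CPM against 4.35, 2.91 and 2.16, and Cd3d at 3.24, 3.26 and 3.37 against 2.7, 1.75 and 2.78. Both rest on few molecules, 14 to 63 UMIs per hashtag for Cd3e and 12 to 30 for Cd3d. Trbc1 was the 1 marker higher without overlap, at 385, 347 and 433 against 466, 487 and 474 CPM. The T cell coreceptor gene Cd4 reached at most 0.343 CPM and Cd8b1 at most 0.436 CPM in these 6 hashtags. Summed markers overlapped for macrophages and monocytes (38.1 to 59.2 CPM with IL-33, 37.5 to 61.0 with dopamine) and for NK cells and ILC1 (662 to 720 against 638 to 687). They did not overlap for neutrophils (2.4 to 17.4 against 0.772 to 1.8) and lung epithelium (100 to 106 against 111 to 150), and their part in the results was not tested.

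Below the threshold, the genes nearest to it among those with at least 50 CPM and no overlap, predicted genes left aside, were as follows. On the lower side stood Slc6a13, a transporter of GABA and taurine, at 75, 75.8 and 83.4 CPM with IL-33 and 58.8, 50.9 and 44.1 CPM with dopamine (log2 -0.61 ± 0.10, adjusted p = 0.0775). Klrg1, an inhibitory receptor that marks mature ILC2s, had 141, 147 and 143 against 113, 108 and 102 CPM (log2 -0.41 ± 0.07, adjusted p = 0.107). Its log2 difference ran from -0.44 to -0.22 over the alternatives, and within clusters from -0.47 in cluster 5 to -0.03 in cluster 3. In the PBS hashtags Slc6a13 was 68.7 and 66.1 CPM and Klrg1 120 and 110. Mns1, a protein of cilia and meiotic cells, and Acot7, an acyl-CoA thioesterase, had log2 differences of -0.49 and -0.42.

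On the higher side stood St8sia4, a polysialyltransferase, at 142, 132 and 145 CPM with IL-33 and 196, 192 and 181 CPM with dopamine (log2 0.44 ± 0.07, adjusted p = 0.0775). Odc1, ornithine decarboxylase, the rate-limiting enzyme of polyamine synthesis, had the largest difference of this group, 477, 454 and 551 against 659, 755 and 994 CPM (log2 0.71 ± 0.14, adjusted p = 0.169). Cd27, a co-stimulatory receptor of the TNF receptor family, had 65.1, 76.7 and 78.2 against 113, 94.3 and 113 CPM (log2 0.55 ± 0.10, adjusted p = 0.169). In the PBS hashtags 1 and 2, Odc1 was 863 and 591 CPM, St8sia4 162 and 169 and Cd27 91.6 and 82.5. The forkhead factor Foxn3, the poly(A) polymerase Tent5a and the ATP-gated channel P2rx4 followed at log2 0.37, 0.55 and 0.39. DESeq2 called Slc6a13, Klrg1, Mns1, Acot7, St8sia4, Odc1, Cd27 and Tent5a.

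**Figure D3:**
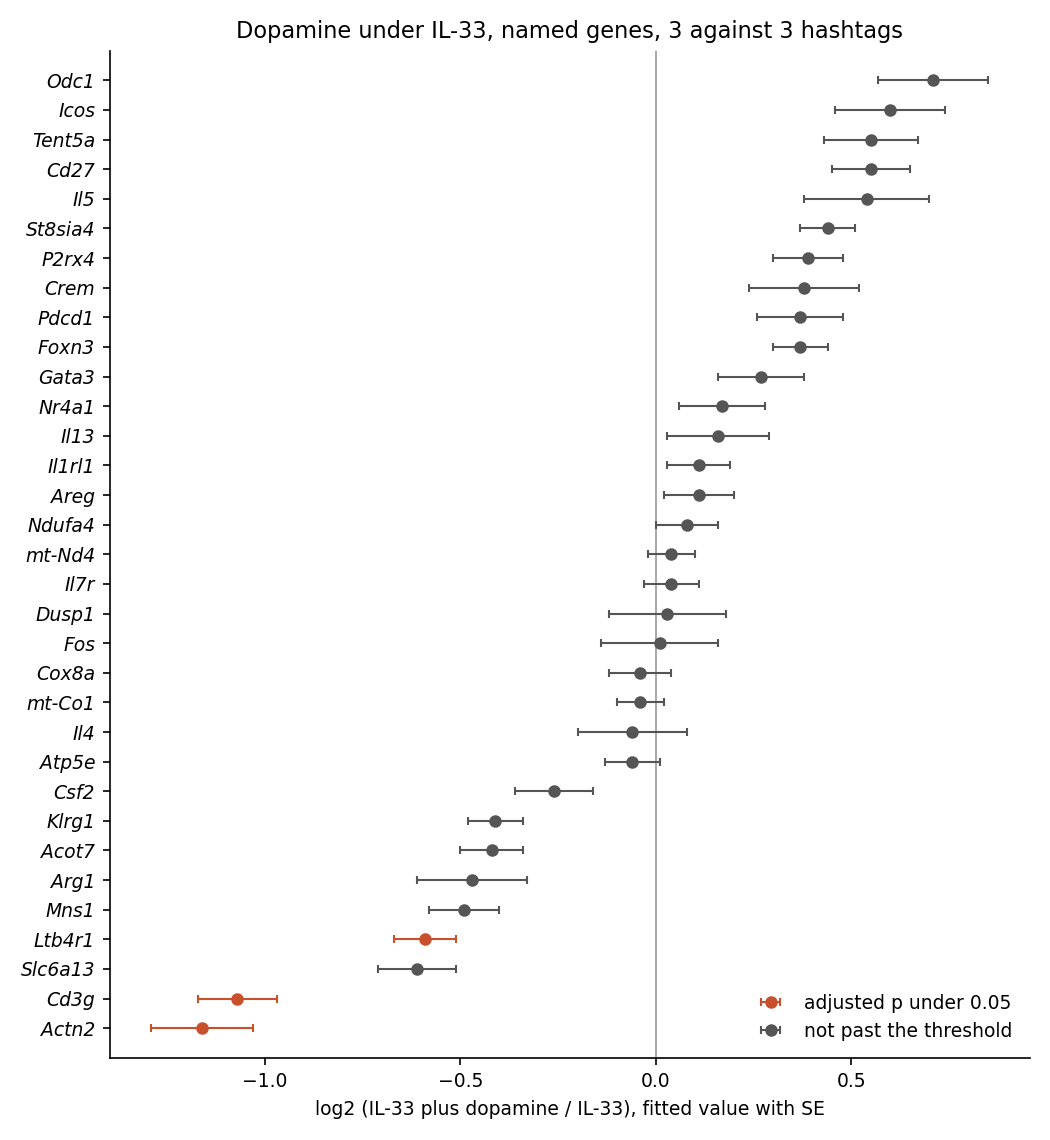
Fitted log2 difference, IL-33 plus dopamine over IL-33, for each named gene (points) with its standard error (bars), from 3 against 3 hashtags. Cd3g, Actn2 and Ltb4r1 passed, at -1.07, -1.16 and -0.59, and the mitochondrial genes and most cytokine genes lie near 0.

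No cytokine gene of the type 2 response passed in the summed cells. Il5, which recruits and sustains eosinophils, was 356, 560 and 501 CPM with IL-33 and 546, 733 and 770 CPM with dopamine, with overlap through hashtags 4 and 6 (log2 0.54 ± 0.16, adjusted p = 0.398). Its log2 difference ran from 0.09 to 0.74 over the alternatives. Within clusters it was 0.69 in cluster 0 and elsewhere from -0.14 in cluster 4 to 0.25 in cluster 5. Il13, which drives mucus production, was 274, 316 and 372 against 306, 419 and 347 CPM (log2 0.16 ± 0.13). Il4 had a log2 difference of -0.06 ± 0.14. The repair factor Areg had 0.11 ± 0.09, and Csf2, which encodes GM-CSF, -0.26 ± 0.10, both with overlapping groups.

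Arg1, arginase, which turns arginine into ornithine ahead of Odc1, went the other way from Odc1 at 361, 268 and 279 against 223, 263 and 170 CPM. Its groups did not overlap, but it did not pass (log2 -0.47 ± 0.14, adjusted p = 0.398). Of the 17 genes on the list of type 2 effectors, 13 were tested, 0 passed and the median log2 difference was 0.077, beside 0.00037 over all genes tested. With equal cluster makeup that median was -0.123.

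No gene of ILC2 identity passed. Gata3 was 806, 769 and 822 CPM with IL-33 and 838, 918 and 1116 CPM with dopamine, higher without overlap but not past the threshold (log2 0.27 ± 0.11, adjusted p = 0.491). The PBS hashtags had 970 and 836 CPM. Il1rl1 (0.11 ± 0.08) and the IL-7 receptor gene Il7r (0.04 ± 0.07) overlapped. On the identity list, 23 of 24 genes were tested with a median log2 difference of 0.032. Without overlap, 3 of them were lower and 3 higher, beside 6.93% and 7.81% of all genes.

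Surface receptors that tune lymphocyte activation had the highest list median, 0.25 over 15 of 17 tested genes, 13 of them above 0 and none past the threshold. Without overlap, 4 of the 15 were higher and 0 lower, beside 7.81% and 6.93% of all genes. Icos, the co-stimulator that ILC2s use for survival, was 255, 285 and 276 CPM with IL-33 and 350, 358 and 517 CPM with dopamine (log2 0.60 ± 0.14, adjusted p = 0.252). Pdcd1, which encodes the checkpoint receptor PD-1, was 179, 173 and 148 against 184, 237 and 222 CPM (log2 0.37 ± 0.11, adjusted p = 0.398). In the PBS hashtags Icos was 527 and 383 CPM and Pdcd1 163 and 138. Tnfrsf9 (4-1BB) and Cd28 were the other two, at log2 0.51 and 0.50. The list median ranged from 0.127 to 0.423 over the alternatives, lowest without hashtag 7. In bulk the list went the other way, with a median of -0.38 relative to the median of all tested bulk genes. There, 6 of 17 members were lower and 1 higher without overlap, beside 17.3% and 7.83% of all bulk genes.

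Genes that respond to cyclic AMP and to activation had list medians above 0, and none passed. The list of cyclic AMP and CREB targets had a median of 0.15 (14 of 17 above 0, 3 higher and 0 lower without overlap), that of immediate early genes 0.15 (25 of 29 above 0, 5 higher and 1 lower) and that of the NF-kB response 0.17 (18 of 21 above 0, 3 higher and 0 lower). Over all 10559 genes, 5295 lay above 0, and 7.81% were higher and 6.93% lower without overlap. These rested in part on hashtag 8 and on the mix of clusters: the immediate early median was 0.007 without hashtag 8, and with equal cluster makeup the cyclic AMP and NF-kB medians were 0.035 and 0.047. Nr4a3, an orphan nuclear receptor induced by cyclic AMP, was 311, 335 and 367 CPM with IL-33 and 386, 412 and 547 CPM with dopamine (log2 0.42 ± 0.13, adjusted p = 0.41). Crem, a cyclic AMP-responsive repressor, overlapped at 179, 211 and 196 against 200, 252 and 307 CPM (log2 0.38 ± 0.14). Over the alternatives the log2 difference of Crem ran from 0.03 to 0.55. In the PBS hashtags Nr4a3 was 555 and 350 CPM and Crem 301 and 207.

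Several well-known members lay nearer to 0. Nr4a1 (0.17 ± 0.11), the phosphatase gene Dusp1 (0.03 ± 0.15) and Fos (0.01 ± 0.15) all overlapped. For NF-kB, the summed share of a hashtag's UMIs was 0.841, 0.854 and 0.833% with IL-33 and 0.901, 0.931 and 1.01% with dopamine. It was 1.08 and 0.875% in the PBS hashtags. The inhibitor gene Nfkbid had log2 0.36 ± 0.09 without passing.

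The vesicular monoamine transporter gene Slc18a2, which loads dopamine and related amines into vesicles, had a log2 difference of -0.24 ± 0.19 and overlapping groups. The dopamine receptor genes were not analysed in these cells, and Drd1 was listed at 0 TPM in all 6 bulk libraries.

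Respiratory chain transcripts differed little between the groups. Complex I had a median log2 difference of -0.0024 over 37 genes, of which 18 were above and 19 below 0, with 0 higher and 2 lower without overlap, beside 7.81% and 6.93% of all genes. The median was -0.065 for the 14 genes of complexes II and III, -0.056 for the 12 of complex IV, -0.055 for the 18 of complex V and 0.0058 for the 13 encoded in mitochondrial DNA. No gene of these lists passed. The quartiles of complex I were -0.04 and 0.04, within the -0.12 and 0.13 of all genes tested, and over the alternatives its median stayed between -0.038 and 0.028.

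Among single subunits, the complex I subunit genes mt-Nd4 (2349, 2390 and 2521 against 2420, 2570 and 2469 CPM) and Ndufv2 (86.5, 89.6 and 93.7 against 80.3, 78.0 and 68.8 CPM) had log2 differences of 0.04 ± 0.06 and -0.25 ± 0.08, the latter without overlap and with an adjusted p of 0.41. Ndufa4 (0.08 ± 0.08), counted here in the complex I list, overlapped. So did mt-Co1 (-0.04 ± 0.06) and Cox8a (-0.04 ± 0.08) of cytochrome c oxidase and Atp5e (-0.06 ± 0.07) of ATP synthase. Mitochondrial DNA-encoded genes took 4.12 ± 0.0819% of UMIs with IL-33 and 4.14 ± 0.143% with dopamine (SD, n = 3).

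Most genes of protein synthesis had small differences below 0. Of 79 cytosolic ribosomal protein genes, 63 lay below 0 and 29 were lower without overlap, beside 6.93% of all genes, but the median was -0.037 and none passed. Together they took 31.8, 31.9 and 32.1% of UMIs with IL-33 and 31.6, 31.0 and 30.9% with dopamine. Rpl28 had the largest difference among the lower ones without overlap, at 3152, 3031 and 3182 against 2866, 2860 and 2585 CPM (log2 -0.17 ± 0.05). The mitochondrial ribosome had a median of -0.090 over 75 genes, 55 of them below 0 and 11 lower without overlap against 4 higher, beside 6.93% and 7.81% of all genes. Its member Mrpl34 was 44.7, 36.9 and 35.8 against 28.2, 26.5 and 19.8 CPM (log2 -0.66 ± 0.13, adjusted p = 0.169) and was called by DESeq2. The cytosolic list stayed between -0.057 and -0.029 and the mitochondrial one between -0.128 and -0.038 over the alternatives.

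Transcripts of dividing cells were rare, and none passed. Cenpf, a kinetochore protein of mitosis, was 8.20, 8.41 and 7.44 CPM with IL-33 and 3.15, 3.06 and 0.463 CPM with dopamine (log2 -1.83 ± 0.36, adjusted p = 0.169). The mitotic cyclin gene Ccnb2 was 5.83, 6.52 and 6.51 against 1.20, 3.64 and 1.70 CPM (log2 -1.51 ± 0.32), and the ubiquitin-conjugating enzyme gene Ube2c had log2 -1.72 ± 0.42. DESeq2 called these 3, which were chosen for naming after their values were seen. The proliferation list as a whole had a median of -0.085 over 27 of 36 genes, with 4 lower and 2 higher without overlap, beside 6.93% and 7.81% of all genes. Cells of cluster 5, where Cenpf was 19.2, 45.7 and 23.9 CPM with IL-33, made up 22.0, 8.88 and 11.7% of IL-33 cells and 6.71, 14.2 and 1.76% of dopamine cells, and the part of that share in these values was not tested.

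**Figure D4:**
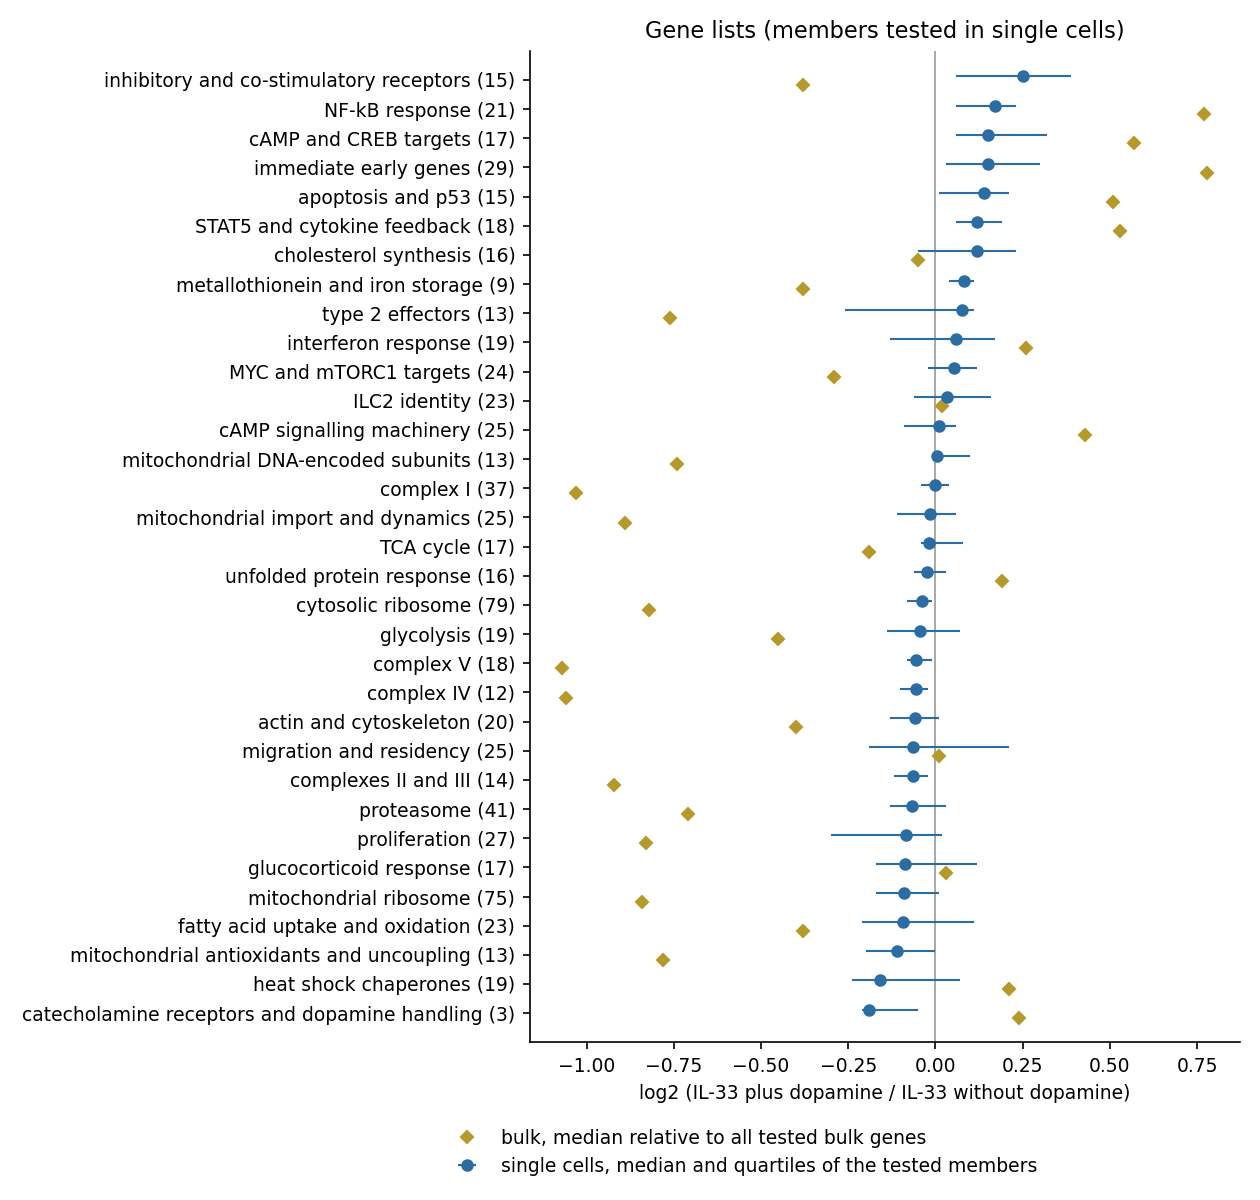
Median log2 difference, dopamine over its control, of 33 gene lists in single cells (circles, with bars at the quartiles of the tested members, whose number is in brackets) and in bulk relative to the median of all tested bulk genes (diamonds). The respiratory chain lists lie at -0.065 to 0.0058 in single cells and at -1.07 to -0.74 in bulk. In bulk the cytosolic ribosome lies at -0.82, the mitochondrial ribosome at -0.84, the proteasome at -0.71 and the immediate early genes at 0.78.

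Within the clusters a few genes passed that, Cd3g apart, had not passed in the summed cells. Some had the same direction there without overlap, among them Odc1, St8sia4, Ramp3 and Klf2, while Il5, Csf2 and Egr1 overlapped there. The genes of single clusters were named after their values were seen, and predicted genes are counted but not named. In cluster 0, which held 239 to 449 cells per hashtag, 3 of 7724 genes (0.0388%) rose and none fell. Il5 rose from 66.5, 64.7 and 65.5 to 114, 106 and 103 CPM (log2 0.69 ± 0.13, adjusted p = 0.0191). Odc1 rose from 236, 277 and 252 to 344, 376 and 376 CPM (log2 0.49 ± 0.09, adjusted p = 0.0191). The groups did not overlap, yet with a hashtag left out Il5 was called in 2 of the 6 cases and Odc1 in 1.

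In cluster 1, 3 of 8005 genes rose and 3 fell (0.0375% each). Beside Cd3g, Enah, a regulator of actin filament growth, fell from 31.7, 37.2 and 37.8 to 14.6, 14 and 10.3 CPM (log2 -1.40 ± 0.23, adjusted p = 0.00747). Ptgs2, the inducible cyclooxygenase of prostaglandin synthesis, fell from 16.9, 21.0 and 20.1 to 7.32, 7 and 2.96 CPM (log2 -1.62 ± 0.32, adjusted p = 0.0466). St8sia4 rose (log2 0.58 ± 0.11), as did the heat-shock gene Hspa1a (log2 1.14 ± 0.19). Cd3g was called whichever hashtag was left out, Enah in 4 of the 6 cases, Hspa1a in 3, St8sia4 in 1 and Ptgs2 in 0.

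In cluster 4, 2 of 7304 genes rose and 2 fell (0.0274% each). The Krueppel-like factor Klf2, which keeps lymphocytes quiescent and migratory, rose from 223, 190 and 193 to 403, 391 and 298 CPM (log2 0.82 ± 0.12, adjusted p = 0.00302). Klf4 of the same family rose from 263, 245 and 286 to 363, 450 and 467 CPM (log2 0.64 ± 0.11, adjusted p = 0.0114). Csf2 fell from 415, 585 and 539 to 324, 293 and 303 CPM (log2 -0.75 ± 0.11, adjusted p = 0.00302). The immediate early factor Egr1 fell from 237, 365 and 221 to 159, 120 and 129 CPM (log2 -0.98 ± 0.16, adjusted p = 0.00853). Klf2, Csf2 and Egr1 were called whichever hashtag was left out, and Klf4 in 3 of the 6 cases.

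Cluster 5 had the most changes, 11 of 7156 genes rising (0.154%) and 8 falling (0.112%), although hashtag 8 gave it 26 cells. Itgae, the CD103 integrin chain that ties lymphocytes to epithelium, rose from 8.19, 3.61 and 4.19 to 45.3, 30.7 and 22.5 CPM (log2 2.48 ± 0.33, adjusted p = 0.00048). These levels rest on few molecules, 33 UMIs over the IL-33 hashtags and 79 over the dopamine hashtags. Tnfrsf4, the co-stimulator OX40, rose from 43.4, 58.9 and 41.3 to 89.3, 131 and 105 CPM (log2 1.25 ± 0.18, adjusted p = 0.00052). Ramp3, a partner of receptors for calcitonin-family peptides, rose from 201, 224 and 200 to 345, 409 and 584 CPM (log2 0.96 ± 0.14, adjusted p = 0.00052).

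Il4 rose there from 39.5, 58.9 and 49.7 to 64.5, 106 and 112 CPM (log2 0.91 ± 0.20, adjusted p = 0.0384), as did the adhesion molecule Alcam (log2 1.19 ± 0.22) and Palld (log2 1.75 ± 0.30), a scaffold of actin. Akap12, a scaffold of protein kinase A, passed as higher (log2 1.66 ± 0.29), but at 32.0, 33.7 and 18.5 against 137, 72.9 and 7.48 CPM its hashtag 8 lay below every IL-33 hashtag. Plin2, which coats lipid droplets, fell from 95.4, 97.4 and 98.7 to 68.7, 37.2 and 37.4 CPM (log2 -1.04 ± 0.20, adjusted p = 0.0121). In hashtag 8, with its 26 cells, the levels of Alcam, Palld, Akap12 and Plin2 also rest on few molecules. Zfp36, which speeds the decay of cytokine mRNAs, fell from 468, 482 and 437 to 346, 221 and 254 CPM (log2 -0.79 ± 0.14, adjusted p = 0.0057). The kinetochore genes Cenpf and Cenpe fell by 1.93 and 1.88. With a hashtag left out, Itgae was called in all 6 cases, Tnfrsf4, Ramp3, Palld and Zfp36 in 5, Alcam and Plin2 in 4, Akap12 in 3, and Il4, Cenpf and Cenpe in 2. Without hashtag 7 it was the sole call of cluster 5, and without hashtag 8 there were 50.

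**Figure D5:**
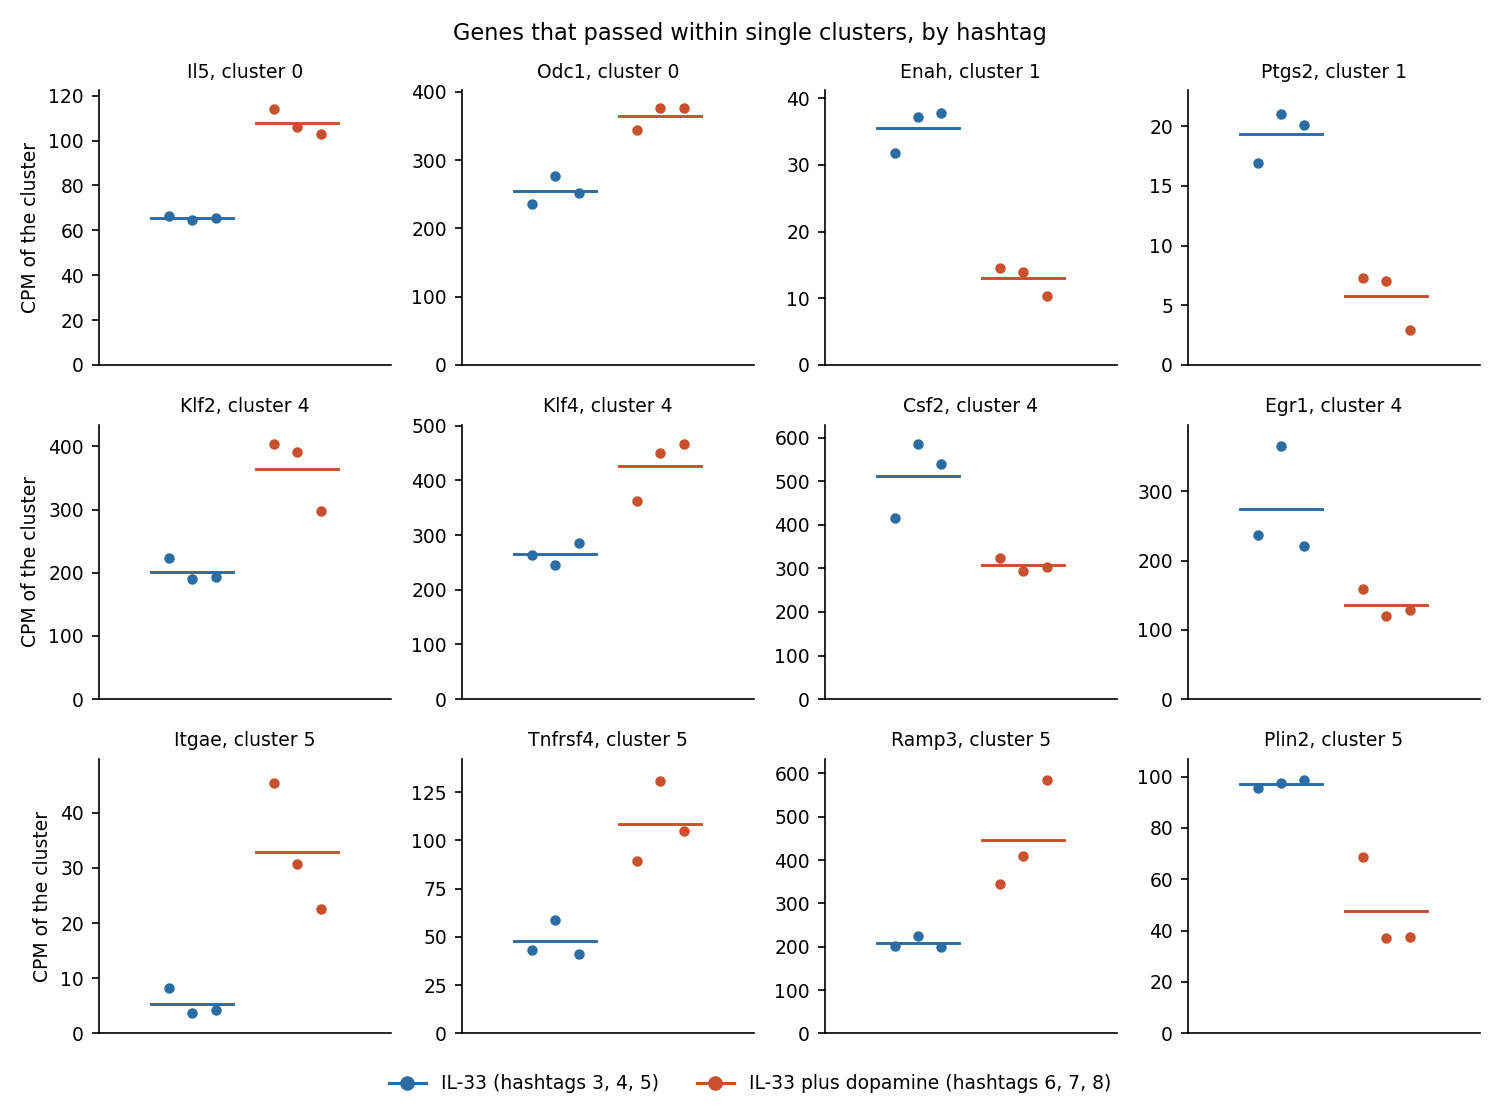
Level of 12 of the genes that passed within a cluster, in UMIs per 1000000 of that cluster (linear axes from 0), with a point per hashtag and a line at the mean of 3. In each panel the 3 dopamine points lie apart from the 3 IL-33 points, as for Il5 in cluster 0 at 103 to 114 CPM against 64.7 to 66.5.

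In clusters 2 and 3 no gene passed (0 of 7077 and 0 of 6493 by edgeR), and DESeq2 was not run within clusters. A joint test of treatment by cluster asked whether the difference itself varied between clusters, and 6 of 8744 genes passed (0.0686%). Klf4, Egr1, Tnfrsf4 and Ramp3 were among them. Il5 (adjusted p = 0.697), Csf2 (0.429), Itgae (0.244), Cd3g (0.697) and Klf2 (0.362) were not, so their changes were not shown to differ between clusters.

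In the bulk libraries Ltb4r1 was lower with dopamine as well, at 466.4, 486.6 and 329.6 TPM with PBS and 226.4, 156.4 and 224.7 TPM with dopamine. The median bulk gene had a log2 difference of 0.49, and set against it Ltb4r1 stood at -1.57, without overlap. Limma tested the difference before this subtraction, which for Ltb4r1 was -1.07 (adjusted p = 0.0832). In bulk, 4 of 11222 genes passed, all higher (0.0356%), and without overlap 7.83% were higher and 17.3% lower against that median. In bulk RNA, fewer cells of a type and less RNA per cell cannot be told apart. Cd3g ran the other way in TPM, at 161.1, 208 and 233.4 with PBS against 265.3, 389.6 and 247.5 with dopamine (limma log2 0.57, adjusted p = 0.193). Its groups overlapped once set against the median gene (relative log2 0.07). Actn2 was also higher in TPM in every dopamine library, at 38.66, 31.55 and 103 against 152.1, 148.8 and 128.3 (limma log2 1.49, adjusted p = 0.0994). Relative to the median gene, the Actn2 groups overlapped (relative log2 0.99). Sex, library method and the sorted cells differ between the experiments, and their part in this was not tested.

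Several genes below the threshold had the same order in bulk. Odc1 was higher in both, with 35.22, 21.43 and 104.8 TPM against 170, 199.3 and 332.6 (relative log2 1.86). Acot7, Klrg1, Slc6a13 and Arg1 were lower in both, at relative log2 differences of -1.40, -1.26, -1.11 and -1.79 without overlap. Before the median was subtracted, Klrg1 overlapped in TPM (269.6, 298.2 and 432.1 against 274.9, 129.4 and 198.3). Slc6a13 reached at most 3.7 TPM. Pdcd1 and Tent5a, higher in the single cells, were lower in bulk, at relative log2 -1.30 and -1.08, although Tent5a overlapped in TPM. Some genes that passed within a cluster went the other way in bulk, without overlap. Egr1, lower in cluster 4, was higher in bulk (relative log2 1.07). Zfp36, lower in cluster 5, was higher too (1.43), and Tnfrsf4, higher in cluster 5, was lower (-2.84). Klf2, higher in cluster 4, was higher in bulk as well (1.26). By limma, Odc1, Acot7, Klrg1, Slc6a13, Arg1, Pdcd1, Tent5a, Egr1 and Tnfrsf4 did not pass in bulk.

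In the counts that follow, bulk values are set against the median bulk gene (log2 0.49), and single-cell values have no such subtraction. Over the 9533 genes tested in both, 690 were lower without overlap in the single cells, and 231 of them (33.5%) were lower without overlap in bulk, beside 17.9% of all genes and 2.75% higher in bulk. These 231 are 13.5% of the 1708 genes lower in bulk. Of 731 genes higher in the single cells, 83 (11.4%) were higher in bulk beside 7.65% of all genes, and 6.02% were lower. Across genes, which are not independent, the log2 differences of the experiments had a Pearson correlation of 0.17. For complex I the counts differed between the experiments: 35 of 37 genes were lower without overlap in bulk (median -1.03) and 2 of 37 in the single cells. Over all genes tested these shares were 17.3% and 6.93%. A gene can count as lower here and still overlap in TPM, as Ndufa4 did (429.3, 478.3 and 432.5 against 494.1, 287.6 and 406.7). Counts without the subtraction are not given. Other lists were low in bulk too, with 0 members higher without overlap. Lower there were 77 of 79 cytosolic ribosomal protein genes (median -0.82), 48 of 75 of the mitochondrial ribosome (-0.84) and 30 of 41 of the proteasome (-0.71).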

How the data were processed

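The authors deposited whole-number UMI counts for 15083 genes in 9076 droplet cells, with a table of each cell's hashtag, treatment, cluster, UMI and gene counts and percent of mitochondrial UMIs (at most 7.5 percent, computed by the authors). Per the submitters' processing notes, cutadapt 2.10, STAR 2.7.5c, RSEM 1.3.3, Cell Ranger 6.1.1, Seurat 4.0.2 and build mm10 were used, with settings not given in the sources used here. Bulk values are the authors' TPM, whose columns sum to 1000000, with unknown depth.

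Counts were summed over all cells of a hashtag, the replicate, and tested with edgeR 4.0.16 (TMM, filterByExpr, quasi-likelihood, adjusted p under 0.05) in R 4.3.3. The same test ran within each cluster, and a joint treatment by cluster term was tested with hashtag and cluster as further terms. DESeq2 1.42.0 was an alternative. Bulk log2(TPM + 1) was tested with limma 3.58.1 (trend) over 11222 genes with TPM of at least 1 in 3 libraries. On simulated counts for the single-cell comparison (10522 genes), 99 percent of 100 genes changed by log2 1.0 and 56 percent of 100 changed by 0.5 were recovered, with 13 of 10322 unchanged genes called. The simulation gave every gene the same dispersion (0.00818), changed only genes of at least 10 CPM, and let hashtags differ in depth alone. Recovery of rarer or more variable genes was not tested. No doublet caller was run, each kept cell has a single hashtag, and no label says how the authors treated doublets.

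Genes were named by rule: up to 12 per direction that passed with at least 50 CPM and no overlap, filled to 6 with genes that did not pass, up to 6 per direction that passed with at least 10 CPM, up to 3 members that passed of each of the 33 functional lists, a fixed set of genes, and genes that passed and had the same order in bulk, with predicted genes counted but not named. Some genes of the fixed set and of the lists are not reported here. Members, the 33 functional and 12 marker lists and the rule were chosen with earlier results of these data known. Lists are described by counts and medians, without a test. Alternatives changed scaling, filters, cells, depth, cluster makeup and the hashtags included. Coordinates are from GENCODE M21 (GRCm38), in which 14891 symbols matched, and none of the 3 genes called overlaps another gene.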

Additional observations from a re-analysis of the deposited data

Results flagged for a closer look

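The difference between IL-33 plus dopamine and IL-33 varied between the 6 clusters for 6 genes, by edgeR's joint test of treatment by cluster with adjustment over 8744 genes. They were named after their values were seen.

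For Klf4 (adjusted p = 0.00865) the log2 difference was 0.81 in cluster 1 and 0.64 in cluster 4, and -0.21 and -0.18 in clusters 2 and 3. In cluster 1 the groups overlapped, at 69.8, 52.8 and 86.4 against 159, 125 and 78.4 CPM, and Klf4 did not pass there. In cluster 3, where its level was highest, it stood at 656, 580 and 721 CPM with IL-33 and 520, 585 and 628 CPM with dopamine. For Egr1 (adjusted p = 0.0267) it was -0.98 in cluster 4 and -0.67 in cluster 5, and 0.28 in cluster 3.

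For Tnfrsf4 (adjusted p = 0.0235) it was 1.25 in cluster 5 and -0.75 in cluster 2. Its levels in cluster 2 were 18.6, 11.8 and 17.2 CPM against 9.38, 10.4 and 9.49. For Ramp3 (adjusted p = 0.0235) it was 0.96 in cluster 5, 0.53 in cluster 3 and -0.26 in cluster 4. Actb, cytoplasmic actin (adjusted p = 0.0235), had -0.33 in cluster 5 and 0.15 in cluster 0. The chaperone Hsp90aa1 (adjusted p = 0.0235) had -0.54 in cluster 0 and 0.15 in cluster 5, and within the IL-33 group hashtag 5 was lowest in every cluster, at 204 CPM against 353 and 398 in cluster 0.

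The number of such genes ran from 4 without hashtag 4 to 23 without hashtag 6.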

How the results depend on the processing

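The count of 3 genes in the summed cells was 3, all lower, with the scalings RLE and upper quartile, with all 8 hashtags in the fit and with library sizes that left out mitochondrial and ribosomal protein genes. It was 4 without a filter on counts, 4 without cluster 4 and 2 at a mean of at least 20 CPM, where Ltb4r1 was lost. It was 26 with DESeq2 (11 higher, 15 lower), 8 with the cells in the middle of the UMI range (3 higher, 5 lower), 8 with equal cluster makeup (6 higher), 4 with thinned cells (1 higher) and 0 without cluster 1 (0 lower), which was added with the data in view, as were the left-out hashtags within clusters. Leaving out a hashtag gave 1 to 16 genes (0 to 3 higher, 1 to 13 lower). Within clusters the counts without a hashtag ran from 0 to 10 in cluster 0, 1 to 24 in cluster 1, 0 to 4 in cluster 2, 0 to 6 in cluster 3, 3 to 17 in cluster 4 and 1 to 50 in cluster 5. With a mean of at least 50 CPM they were 1, 1, 1 and 9 in clusters 0, 1, 4 and 5. Genes differing between clusters ran from 4 to 23.

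Some genes near 0 changed sign. With equal cluster makeup this held for Il13 (-0.08), Areg (-0.12), Dusp1 (-0.05), Fos (-0.13), mt-Co1 (0.0042) and Il7r (-0.0015). In the middle UMI range it held for Fos (-0.03), mt-Co1 (0.0040) and Il7r (-0.0042), in thinned cells for Fos (-0.03) and Cox8a (0.01), and without cluster 1 for Areg (-0.02), Dusp1 (-0.08) and Fos (-0.09). Without a hashtag the log2 difference ran from -0.22 to 0.12 for Il4, from -0.00025 to 0.27 for Nr4a1, from -0.16 to 0.17 for Dusp1, from -0.21 to 0.16 for Fos, from -0.01 to 0.09 for Il7r. The cause of these shifts was not tested.

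In bulk, 4 genes became 2 with pseudocount 5, 0 with all genes kept, 2 when the mean had to reach 5 TPM, 21 after quantile normalization and 15 with a replicate block, and 0 (without dopamine replicate 2) to 1383 (without PBS replicate 1) when a library was left out. Replicate numbers pair the bulk samples by name only: same-numbered libraries had correlations of 0.0186, -0.071 and -0.00177 between their deviations. Hashtags share no replicate number, so the single-cell comparison has no block.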

Other observations

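A few further genes had no overlap between the groups and passed under an alternative to the main test, and were named after their values were seen. Per3, a repressor of the circadian clock, was 12, 12.5 and 12.6 CPM with IL-33 and 21.0, 21.0 and 19.4 CPM with dopamine (log2 0.73 ± 0.11, adjusted p = 0.0683), and DESeq2 (adjusted p = 0.0225) and equal cluster makeup (0.0371) called it. Cst7, a cysteine protease inhibitor of cytotoxic lymphocytes, was 17.4, 17.5 and 18.1 against 11.3, 10.3 and 9.41 CPM (adjusted p = 0.0683). Epcam, an epithelial adhesion molecule, was 23.3, 24.9 and 19.4 against 49.7, 29.5 and 45.7 CPM (adjusted p = 0.169). The alveolar epithelial marker Sftpc reached at most 1.63 CPM in these 6 hashtags. Scgb1a1, of the same marker list, was 73.4, 78.9 and 78.9 against 82.1, 78.7 and 102 CPM, with overlap. The part of epithelial RNA in the Epcam level was not tested. With equal cluster makeup, Klf2 (log2 0.61, adjusted p = 0.00687) and Tnfsf8, the ligand of CD30 (log2 1.53, adjusted p = 0.00306), passed as well, although over all cells the Tnfsf8 groups overlapped (log2 0.32).

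For 3 genes of the list on migration and residency, also chosen after their values were seen, dopamine hashtags 6 and 8 lay below every IL-33 hashtag and hashtag 7 did not. Lgals1, galectin-1, was 310 and 461 CPM in the PBS hashtags, 802, 551 and 677 with IL-33, and 390, 585 and 315 with dopamine. Vim, vimentin, was 465 and 495, then 933, 689 and 868, then 554, 704 and 492 CPM. S100a6 was 401 and 582, then 917, 639 and 827, then 457, 712 and 413 CPM. None passed, with adjusted p-values of 0.391, 0.294 and 0.398 by edgeR. Without hashtag 7, Lgals1 and S100a6 were among 16 genes called.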
